A study of Mus musculus with 3 samples.

Results

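Imprinted genes are transcribed from a single parental allele, and many of them control growth before birth, when their transcripts are abundant, and decline afterwards. Paternally expressed members of the group, such as the growth factor gene Igf2, tend to promote growth, and maternally expressed members, such as H19 and the cell cycle inhibitor gene Cdkn1c, tend to restrain it. Cartilage is a tissue in which several of them are known to be active, and fracture callus forms cartilage anew in the adult. The 10 genes described here were Igf2, H19, Zim1, Peg3, Peg10, Cdkn1c, Dlk1, Plagl1, Mest and Meg3, all of which were present among the 32285 genes of the files. They were chosen by measured values, because Igf2, Zim1, Peg10 and Cdkn1c led clusters of chondrocyte-like cells in the same libraries, so a high level of these 4 genes in cartilage-like cells is the reason for their choice and not a result.

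The cells came from callus of the fractured femur of C57BL/6 mice that received no treatment, with 1 library at day 7, 1 at day 10 and 1 at day 14 after fracture. The callus was digested with collagenase and live cells without the surface proteins CD45, CD31 and TER119, which mark blood, endothelial and erythroid cells, were sorted before droplet single-cell RNA sequencing of transcript 3′ ends. The number and age of the animals behind each library are not given in the sources used here, the study states that both sexes were used and grouped, and both parental alleles of an inbred strain read the same, so allelic expression was not measured. With 1 library a day there is no replicate, no test was possible, and every interval below covers counting error only.

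The genes lie in a few imprinted domains (positions in GRCm38, GENCODE M21 annotation). On chromosome 7, H19, a maternally expressed noncoding RNA, occupies chr7:142575529-142578143, and Igf2, the paternally expressed insulin-like growth factor gene, lies 72.6 kb away at chr7:142650766-142666816, both on the minus strand. Cdkn1c is at chr7:143458339-143461050 on the same strand, in the neighbouring domain. Zim1, a maternally expressed zinc finger gene, at chr7:6671269-6696450, and Peg3, a paternally expressed zinc finger gene, at chr7:6703892-6730431, are 7.44 kb apart on the minus strand. On chromosome 12, Dlk1, which encodes a transmembrane Notch-like ligand and is paternally expressed, at chr12:109452823-109463336, and Meg3, a maternally expressed noncoding RNA, at chr12:109541001-109571726, are 77.7 kb apart on the plus strand. The retrotransposon-derived Peg10 (chr6:4747306-4760517) and the hydrolase-like Mest (chr6:30723547-30748465) are on chromosome 6, and Plagl1, a zinc finger transcription factor, is on chromosome 10 (chr10:13060504-13131694). Antisense genes listed in the same files overlap Igf2 (Igf2os), Cdkn1c (Gm44732) and Mest (Copg2 and Gm44296), and the strand setting of the counting is not given in the sources used here.

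Of the 3 neighbouring pairs, Zim1 with Peg3 and Dlk1 with Meg3 are shown by their promoters, and no promoter window was found for H19. Over the classes of cells described below, Zim1 and Peg3 had parallel levels (Pearson correlation 0.96). Dlk1 and Meg3 were less parallel (0.65), but Dlk1 was near the limit of detection, so its pattern could hardly show. Each sequence is the RefSeq window from 250 bases before to 50 bases after the gene's start (GRCm38.p6, 5′ to 3′ on the gene's strand), and capitals mark CpG dinucleotides, the bases that carry DNA methylation.
Zim1 (chr7:6696383-6696682, minus): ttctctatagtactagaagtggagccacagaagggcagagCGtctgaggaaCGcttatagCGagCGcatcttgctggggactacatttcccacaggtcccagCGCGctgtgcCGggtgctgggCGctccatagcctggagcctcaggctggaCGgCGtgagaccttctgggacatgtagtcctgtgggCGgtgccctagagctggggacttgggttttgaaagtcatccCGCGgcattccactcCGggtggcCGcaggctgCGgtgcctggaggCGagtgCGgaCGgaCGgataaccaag
Peg3 (chr7:6730370-6730669, minus): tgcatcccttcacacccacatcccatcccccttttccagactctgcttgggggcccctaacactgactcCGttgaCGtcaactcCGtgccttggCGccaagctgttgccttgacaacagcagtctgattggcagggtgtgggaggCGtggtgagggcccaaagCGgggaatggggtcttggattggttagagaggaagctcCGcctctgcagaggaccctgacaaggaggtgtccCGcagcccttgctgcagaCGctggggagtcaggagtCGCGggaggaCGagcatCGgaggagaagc
Dlk1 (chr12:109452573-109452872, plus): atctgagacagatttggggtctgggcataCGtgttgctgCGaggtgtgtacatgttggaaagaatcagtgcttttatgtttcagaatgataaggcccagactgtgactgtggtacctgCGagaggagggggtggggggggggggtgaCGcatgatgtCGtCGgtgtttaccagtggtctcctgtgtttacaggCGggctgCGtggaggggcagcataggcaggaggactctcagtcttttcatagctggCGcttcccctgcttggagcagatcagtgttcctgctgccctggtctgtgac
Meg3 (chr12:109540746-109541045, plus): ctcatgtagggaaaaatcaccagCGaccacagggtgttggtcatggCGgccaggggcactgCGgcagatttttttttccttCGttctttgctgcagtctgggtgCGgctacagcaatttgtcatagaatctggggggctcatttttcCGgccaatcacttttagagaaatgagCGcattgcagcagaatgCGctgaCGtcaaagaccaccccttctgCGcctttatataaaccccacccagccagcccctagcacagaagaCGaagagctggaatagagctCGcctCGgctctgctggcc
The windows held 20 CpG dinucleotides in Zim1, 13 in Peg3, 9 in Dlk1 and 13 in Meg3, against a median of 7 over 32851 promoter windows of the same length. At least as many were present in 26.5% of all windows for Zim1, 37.9% for Peg3 and Meg3, and 45.8% for Dlk1. Promoter windows were found for 7 of the 10 genes. Methylation was not measured in these libraries.

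The libraries held 9103, 8801 and 12984 barcodes at day 7, 10 and 14, of which 7017, 6593 and 9853 were within the limits on genes, mitochondrial and haemoglobin UMIs (unique molecular identifiers, each standing for a captured transcript). The day 7 library stood apart: 6570 of its 7017 cells carried a UMI of Ptprc, the CD45 gene, against 6 of 6593 at day 10 and 173 of 9853 at day 14, although CD45-negative cells had been sorted. Only cells without a Ptprc UMI were used, which left 447, 6587 and 9680 cells with medians of 6763, 17372 and 15838 UMIs. Few barcodes were shared between libraries, 29 between day 7 and 10, 42 between day 7 and 14 and 35 between day 10 and 14.

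Cells were grouped by the gene they were high for, where high meant a level at or above the 95th percentile of day 10 and day 14 cells and at least 2 UMIs. The markers were Matn4 and Cnmd, cartilage matrix genes, Col10a1, the collagen of hypertrophic cartilage, Aspn, a matrix gene of fibrous and progenitor cells, Ifitm5, a gene of mineralizing osteoblasts, and Chodl, a lectin gene. For Chodl the percentile was 0, so the class holds any cell with 2 or more Chodl UMIs. At day 10 the classes held 270 Matn4-high, 522 Cnmd-high, 262 Col10a1-high, 42 Chodl-high, 226 Aspn-high and 213 Ifitm5-high cells, and at day 14 they held 476, 209, 549, 13, 568 and 532. At day 7 only 29 cells entered any class, 16 of them Ifitm5-high and 6 Cnmd-high, and blood markers summed to 1334 to 2797 CPM (UMIs of a gene per 1000000 UMIs) in those classes against 5.54 to 52.8 CPM at day 10 and 14. The part of blood RNA in the day 7 levels was not tested. Cells high for 2 or more markers numbered 98 at day 10 and 78 at day 14.

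The classes are ranges of a continuous measure. For Cnmd 817 cells at day 10 and 381 at day 14 lay within 20% of the threshold, for Col10a1 109 and 231, for Aspn 225 and 667, for Matn4 297 and 365, and for Ifitm5 34 and 69. Matn4-high cells had a median Cnmd level of 3010 CPM at day 10 and 847 CPM at day 14, and Cnmd-high cells a median Matn4 level of 826 and 838 CPM. The median Cnmd level was 251 and 88.7 CPM in Col10a1-high cells and 0 in Aspn-high and Ifitm5-high cells, and the median Aspn level was 0 in Col10a1-high and Ifitm5-high cells. Defining genes that took no part in the grouping matched this order at day 10: Col2a1, the main cartilage collagen, was at 48105 CPM in Cnmd-high against 635 CPM in Aspn-high cells, Ihh, a signal of prehypertrophic cartilage, at 1094 CPM in Col10a1-high against 20.4 CPM in Cnmd-high cells, and Bglap, the osteocalcin gene, at 5743 CPM in Ifitm5-high cells. Endothelial, muscle, pericyte and Schwann marker lists each summed to at most 51.4 CPM in every class at day 10 and 14.

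Just inside against just outside the Cnmd threshold at day 10, Igf2 was at 152 against 112 CPM, H19 at 1192 against 1226 CPM and Meg3 at 1030 against 814 CPM. Just inside and just outside the Col10a1 threshold at day 10, in 49 and 60 cells, Meg3 was at 61.4 and 173 CPM and Mest at 38.5 and 135 CPM. H19, at 118 and 143 CPM, and Peg3, at 801 and 938 CPM, differed less there. Igf2 was at 19.3 and 42.5 CPM, Dlk1 had 0 and 38 UMIs and Peg10 had 1 and 6 UMIs. At day 14 the step was smaller for Meg3, at 67.7 and 80.0 CPM, and for Mest, at 58.8 and 87.0 CPM.

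**Figure D1:**
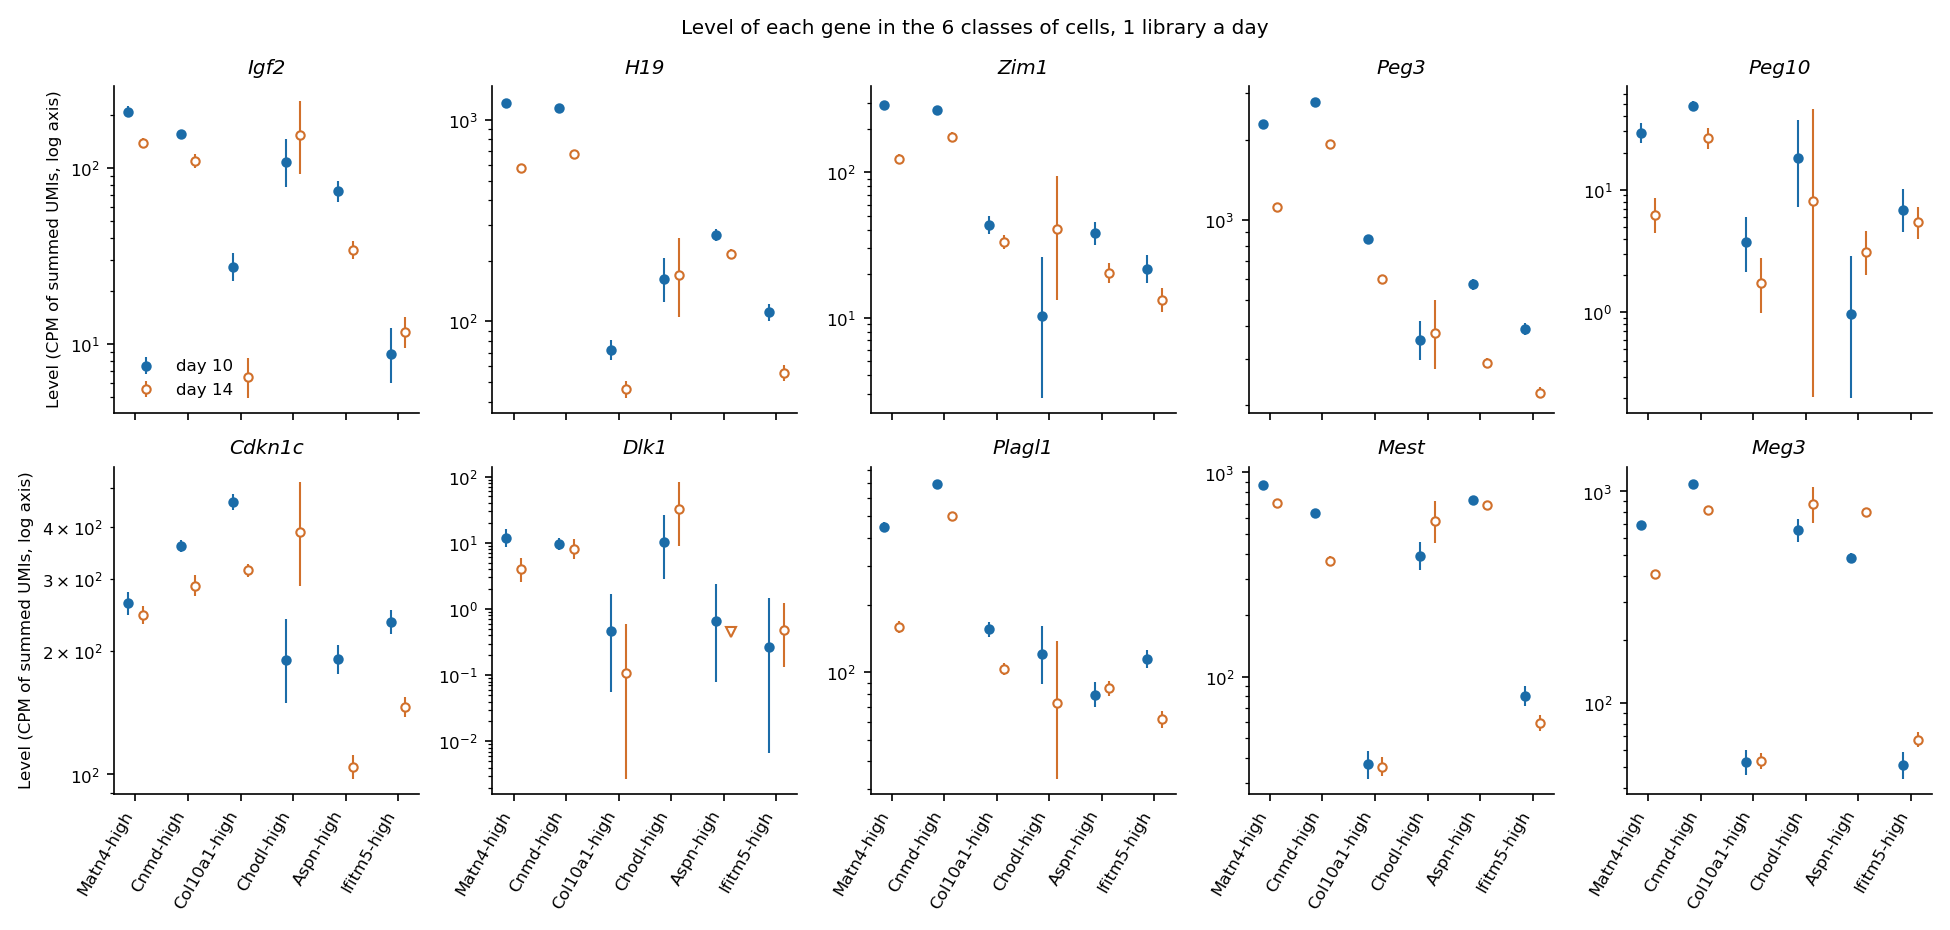
Level of each of the 10 genes (CPM in each class as a whole, log axis, a separate scale for each gene) in the 6 classes at day 10 (filled) and day 14 (open). Bars are 95% Poisson counting intervals of 1 library a day, and the triangle marks the upper bound for Dlk1 in Aspn-high cells at day 14, where no UMI was counted. At day 10 all genes but Cdkn1c were highest in Matn4-high or Cnmd-high cells, whereas Cdkn1c was highest in Col10a1-high cells at day 10 and Mest and Meg3 were also high in Aspn-high cells.

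The growth factor gene Igf2 was highest in Matn4-high cells at day 10, at 209 CPM (195 to 225, 95% Poisson interval, as in parentheses below), followed by 156 CPM (148 to 165) in Cnmd-high cells. It stood at 108 CPM (77.9 to 146) in Chodl-high and 73.7 CPM (64.4 to 83.9) in Aspn-high cells, and those 2 intervals overlapped. The level was 27.4 CPM (22.7 to 32.8) in Col10a1-high and 8.71 CPM (6.00 to 12.2) in Ifitm5-high cells. At day 14 it was 154 CPM (92.9 to 241) in the 13 Chodl-high cells, an interval that overlapped that of the Matn4-high cells at 139 CPM (130.3 to 149), and then 110.1 CPM in Cnmd-high, 34.3 in Aspn-high, 11.7 in Ifitm5-high and 6.46 in Col10a1-high cells. Igf2 was thus lowest in the Col10a1-high and Ifitm5-high cells on both days. In cells with 2 or more Ptprc UMIs, taken as a background, Igf2 was at 0.915 CPM in 6284 cells of day 7 and at 23.8 CPM (16.4 to 33.4) in 119 cells of day 14. The day 14 levels in Col10a1-high and Ifitm5-high cells were below the latter, so they are not read as expression.

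H19 followed its neighbour Igf2 in part. It was at 1208 CPM (1173 to 1244) in Matn4-high and 1146 CPM (1124 to 1168) in Cnmd-high cells at day 10, and at 267 CPM in Aspn-high, 162 in Chodl-high, 111 in Ifitm5-high and 72.2 in Col10a1-high cells. At day 14 Cnmd-high cells had 679.6 CPM (654 to 706) and Matn4-high cells 578 CPM (559 to 597), so these 2 classes changed places, and the other classes ranged from 46.0 CPM in Col10a1-high to 217 CPM in Aspn-high cells. Over the 12 class by day levels the 2 genes had a Pearson correlation of 0.84, a description over points that share libraries and cell depth.

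Zim1 and Peg3 had the most parallel levels of any pair among the 10 genes (r = 0.96 over the 12 levels). Zim1 was at 293 CPM (276 to 311) in Matn4-high, 270.1 CPM (259 to 281) in Cnmd-high, 43.4 CPM (37.4 to 50.1) in Col10a1-high and 38.1 CPM (31.5 to 45.7) in Aspn-high cells at day 10, and the intervals overlapped between the first 2 and between the last 2. The Ifitm5-high cells had 21.7 CPM, and the Chodl-high cells 10.3 CPM from 4 UMIs. At day 14 Zim1 was at 176 CPM in Cnmd-high and 124 in Matn4-high cells and between 13.2 and 40.6 CPM elsewhere.

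Peg3 was at 2774 CPM (2740 to 2809) in Cnmd-high, 2295 CPM (2246 to 2345) in Matn4-high and 849 CPM (821 to 877) in Col10a1-high cells at day 10. Aspn-high cells had 573, Ifitm5-high cells 389 and Chodl-high cells 352 CPM, the latter 2 with overlapping intervals. The first 3 places were the same at day 14, with 1932, 1116 and 599 CPM. Only the Cnmd-high and Matn4-high cells were thus above the Col10a1-high cells for Peg3 on both days, whereas for H19, Mest and Meg3 these were last or next to last.

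Plagl1 was also parallel to Peg3 (r = 0.94). It was at 693 CPM (676 to 711) in Cnmd-high, 446 CPM (425 to 469) in Matn4-high and 156 CPM (144 to 168) in Col10a1-high cells at day 10, with 79.5 to 121 CPM in the other 3 classes. At day 14 the Cnmd-high level was 498 CPM and the Matn4-high level 160.0 CPM, a wider gap than at day 10. Peg10 was a gene of low level, at 48.1 CPM (43.7 to 52.9) in Cnmd-high and 29.1 CPM (23.9 to 35.2) in Matn4-high cells at day 10 and at 26.2 CPM (21.4 to 31.6) and 6.24 CPM (4.44 to 8.53) at day 14. In Aspn-high cells 3 Peg10 UMIs were counted at day 10 and 26 at day 14, and at day 14 the intervals of all neighbours in the order of classes overlapped.

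Cdkn1c, whose product stops the cell cycle, had a different order. It was highest in Col10a1-high cells at day 10, at 462 CPM (442 to 483), then 360.3 CPM (348 to 373) in Cnmd-high and 261 CPM (245 to 278) in Matn4-high cells. Ifitm5-high cells had 235, Aspn-high cells 191 and Chodl-high cells 190.3 CPM. At day 14 the 13 Chodl-high cells had 389.7 CPM (287 to 517), an interval that overlapped that of the Col10a1-high cells at 315 CPM (304 to 327), and the lowest level was 104 CPM in Aspn-high cells. Between the lowest and the highest class Cdkn1c differed less than any of the other 9 genes at day 10, from 190.3 to 462 CPM.

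Mest and Meg3 were high in Matn4-high, Cnmd-high and Aspn-high cells (r = 0.94 between the 2 genes). Mest was at 869.5 CPM (839 to 900.4) in Matn4-high, 735 CPM (705 to 766) in Aspn-high and 633 CPM (617 to 650.2) in Cnmd-high cells at day 10, against 80.8 in Ifitm5-high and 37.2 CPM in Col10a1-high cells. At day 14 Mest was at 706 CPM in Matn4-high and 696 CPM in Aspn-high cells, with overlapping intervals, and at 369 CPM in Cnmd-high cells. Meg3 was at 1089 CPM (1067 to 1111) in Cnmd-high, 695 in Matn4-high, 656 in Chodl-high and 485 CPM in Aspn-high cells at day 10. In Col10a1-high and Ifitm5-high cells it was at 52.7 and 51.0 CPM, with overlapping intervals. By the shares of cells given below, Mest and Meg3 in those classes were not above the day 14 background. At day 14 Chodl-high (869 CPM), Cnmd-high (817 CPM) and Aspn-high cells (799 CPM) had overlapping intervals.

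Dlk1, the protein-coding neighbour of Meg3, was near the limit of detection. It was at 11.8 CPM (8.55 to 15.9) in Matn4-high and 9.69 CPM (7.75 to 11.97) in Cnmd-high cells at day 10, at 10.3 CPM from 4 UMIs in Chodl-high cells, and at 0.465, 0.652 and 0.264 CPM in Col10a1-high, Aspn-high and Ifitm5-high cells. At day 14 no Dlk1 UMI was counted among 8340924 UMIs of Aspn-high cells, which allows a level of up to 0.360 CPM, while Meg3 stood at 799 CPM in the same cells. The 4 UMIs in the 13 Chodl-high cells gave 32.5 CPM (8.85 to 83.2).

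Comparisons between classes were read against all genes. A gene was called different when its levels differed at least 2-fold and the higher was at least 10 CPM. From Aspn-high to Cnmd-high cells at day 10, 7 of the 10 genes were called higher and none lower, where 5.27% of 8192 genes were called higher and 19% lower. The log2 ratios were 1.08 (0.88 to 1.29) for Igf2, 2.10 (2.00 to 2.20) for H19, 2.28 (2.21 to 2.35) for Peg3 and 5.62 (4.06 to 7.91) for Peg10, the last resting on 3 Peg10 UMIs in the Aspn-high cells. Cdkn1c, at 0.92 (0.79 to 1.05), was not called, Mest was slightly lower in Cnmd-high cells, at -0.21 (-0.29 to -0.14), and Dlk1 did not reach 10 CPM. At day 14 the count was again 7 higher and none lower, against 5.81% and 21.2% of 8026 genes. Cdkn1c was called at day 14 (1.47, 1.34 to 1.59) and Meg3 was not (0.03, -0.03 to 0.09). Since the choice of Igf2, Zim1, Peg10 and Cdkn1c rested on such a contrast, nothing is read from these counts.

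From Cnmd-high to Col10a1-high cells, 8 of the 10 genes were called lower and none higher at day 10, where 11% of 7752 genes were called lower and 14.4% higher. The log2 ratios were -4.37 (-4.56 to -4.18) for Meg3, -4.09 (-4.33 to -3.86) for Mest, -3.99 (-4.15 to -3.82) for H19, -2.51 (-2.79 to -2.24) for Igf2 and -1.71 (-1.76 to -1.66) for Peg3. Between the 90th and the 98th percentile as the threshold the ratios ran from -3.36 to -4.98 for Meg3, -3.15 to -4.71 for Mest and -3.29 to -5.11 for H19, wider than the counting intervals. At day 14 the count was 8 lower and none higher, against 11.1% and 12.3% of 7552 genes. The exception with enough UMIs was Cdkn1c, which was higher in Col10a1-high cells by a log2 ratio of 0.36 (0.28 to 0.44) at day 10 and 0.13 (0.03 to 0.23) at day 14, short of 2-fold. Over the 9 genes at 10 CPM or more the median log2 ratio, with 1 CPM added to both levels, was -2.61 at day 10 and -3.31 at day 14, beside 0.16 and 0.11 over all genes compared. Clusters of these cells took part in the choice of the genes, so this too is given as a description.

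From Aspn-high to Ifitm5-high cells, 4 of the 10 genes were called lower and none higher on each day: Igf2, H19, Mest and Meg3. The share of all genes called lower was 17.3% at day 10 and 17% at day 14, and the share called higher 6.01% and 5.94%. Meg3 had log2 ratios of -3.25 (-3.47 to -3.03) and -3.57 (-3.69 to -3.44), and Mest of -3.19 (-3.36 to -3.01) and -3.56 (-3.69 to -3.42). H19 had -1.27 (-1.44 to -1.10) at day 10, a call that ended when cells with over 5000 genes were kept (log2 ratio -0.64). Peg3 and Zim1 were not called, with Peg3 at -0.56 (-0.66 to -0.46) and -0.37 (-0.46 to -0.28). Plagl1 pointed upward at day 10 (0.53) and downward at day 14 (-0.46).

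**Figure D2:**
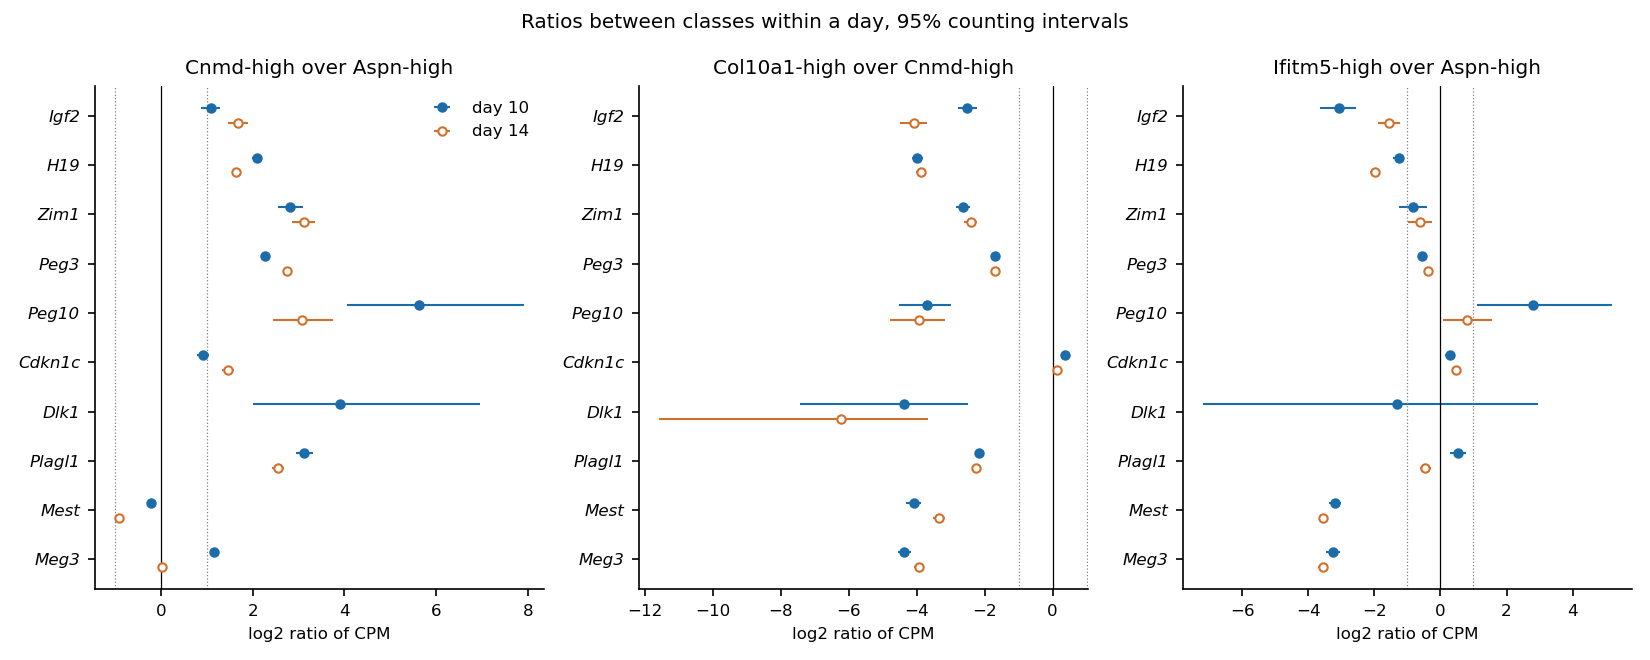
Log2 ratio of the summed level (CPM) of each gene between classes within day 10 (filled) and day 14 (open), with 95% exact binomial counting intervals, the line at 0 and dotted lines at 2-fold. In the middle panel every gene but Cdkn1c lies below a ratio of -1, and in the right panel Igf2, H19, Mest and Meg3 do on both days, as does the day 10 point of Dlk1, which rests on 1 and 2 UMIs. Dlk1 has no point where a class had no UMI.

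The classes take only the extremes of Col10a1, so the genes were also followed over all cells with 5000 CPM or more of Col2a1, split by their Col10a1 level, a division made after the values had been seen. At day 10 this gave 2945 cells under 200 CPM of Col10a1, then 351, 246, 224 and 314 cells in the ranges up to 1000, 5000 and 20000 CPM and above, and at day 14 it gave 1744, 548, 412, 685 and 609. H19 was at 1113, 723, 588, 287 and 84.8 CPM over the 5 ranges at day 10, lower at each step. Meg3 was at 692, 420.2, 281, 188 and 81.8 CPM, and Zim1 at 216, 157, 116, 66.0 and 51.5 CPM, also lower at each step. H19, Zim1, Meg3, Mest and Plagl1 were lower at each of the 4 steps on both days.

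Igf2 took another course at day 10, with 109 CPM under 200 CPM of Col10a1 and 24.1, 24.4, 28.8 and 30.2 CPM above. Past the first step the Igf2 intervals overlapped, and these levels lay within the interval of the day 14 background given above. At day 14 Igf2 was lower at each step, from 54.5 to 7.52 CPM. From 1000 CPM of Col10a1 upward the day 14 levels, 13.6, 9.57 and 7.52 CPM, were below that background and neighbouring intervals overlapped. Those levels are not read as expression. Plagl1 was at 606, 559, 523, 332 and 169.5 CPM at day 10, so it was close to its starting level until Col10a1 passed 5000 CPM. At day 14 Plagl1 was at 382, 352, 238, 156 and 118 CPM, already well below its starting level at 1000 to 5000 CPM of Col10a1. Cdkn1c was highest in the middle of the range on both days, with 284, 412, 710.1 CPM (686 to 735), 625 and 491 CPM (473 to 510.5) at day 10. At day 14 the Cdkn1c levels were 220.3, 414, 520.0, 374 and 332 CPM. Peak Cdkn1c thus lay in cells with 1000 to 5000 CPM of Col10a1, which the Col10a1-high class leaves out. Between the end ranges the median log2 ratio was -2.05 at day 10 and -2.60 at day 14 over 9 of the genes, beside 0.02 and -0.02 over all genes.

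**Figure D3:**
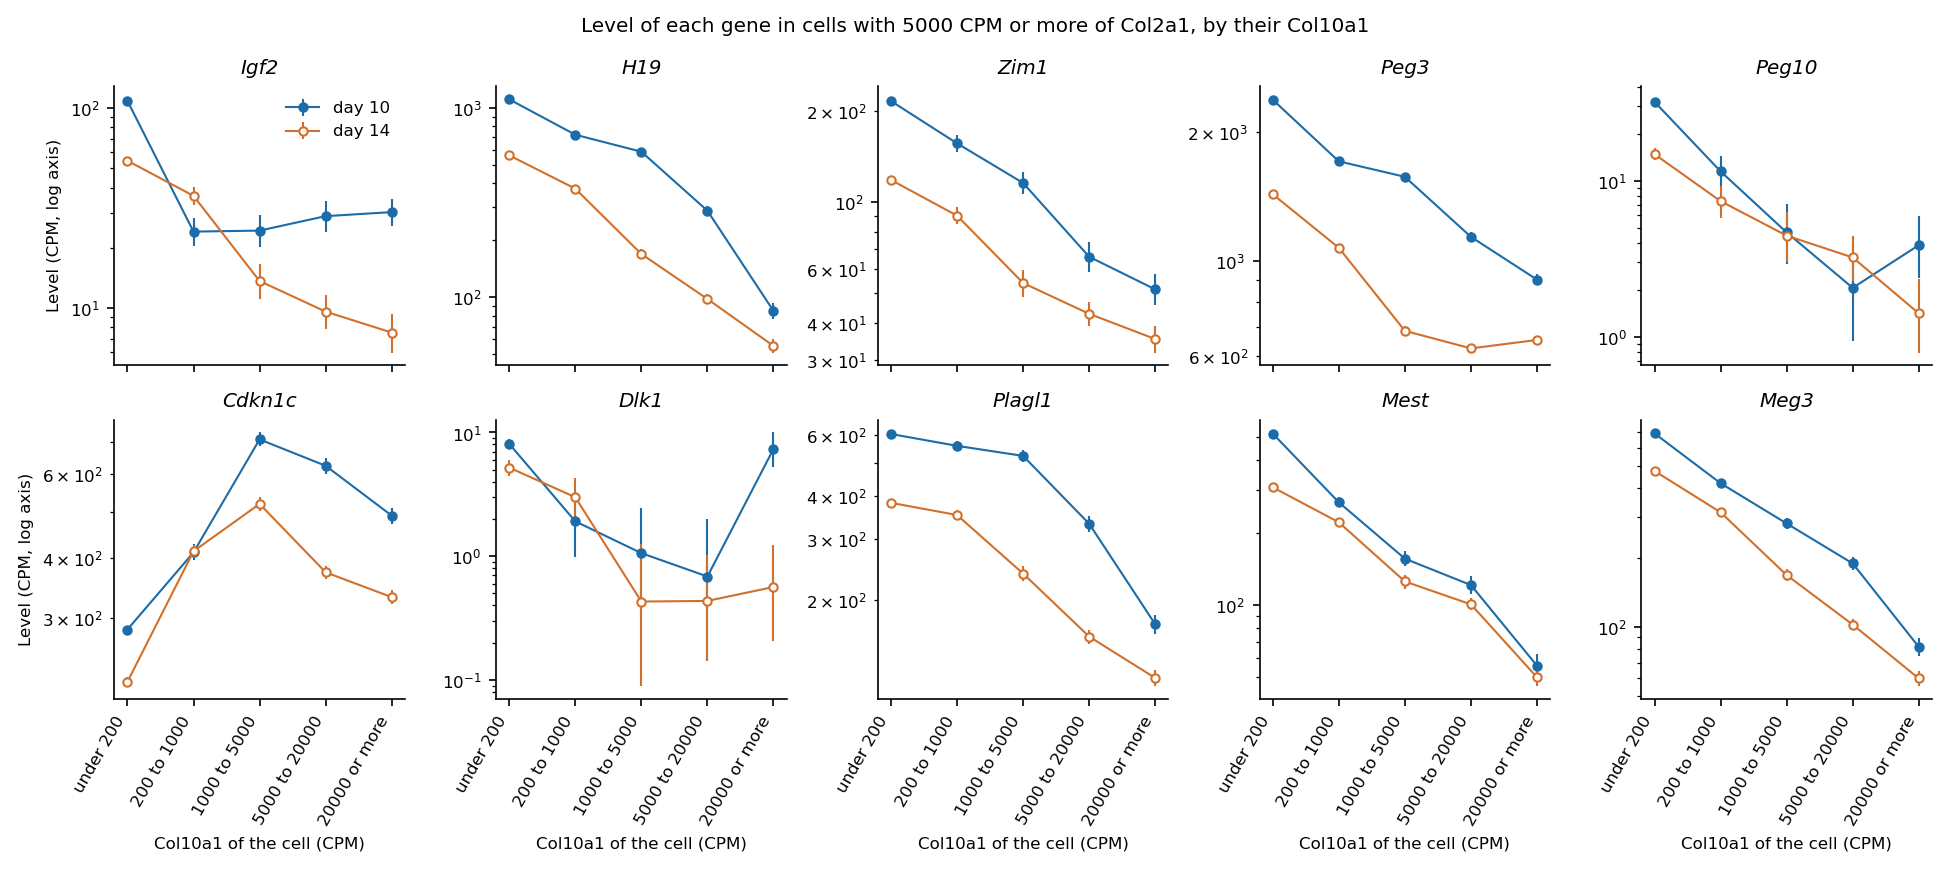
Level of each gene (CPM, log axis, a separate scale for each gene) in cells with 5000 CPM or more of Col2a1, divided into 5 ranges by the Col10a1 level of the cell, at day 10 (filled) and day 14 (open), with 95% Poisson counting intervals. H19, Zim1, Plagl1, Mest and Meg3 step down along the range on both days, while Cdkn1c is highest at 1000 to 5000 CPM of Col10a1.

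Most of the genes were lower in the day 14 library than in the day 10 library in every class but the Chodl-high cells, where 8 of 10 were higher. With 1 library a day the day cannot be told apart from the library. In Matn4-high cells all 10 genes had a lower level at day 14, and 6 of them, H19, Zim1, Peg3, Peg10, Dlk1 and Plagl1, were called different, where 4.4% of all genes were. Peg3 was at 2295 and 1116 CPM (log2 ratio -1.04, -1.09 to -0.99), Plagl1 at 446 and 160.0 CPM (-1.48, -1.59 to -1.37) and Cdkn1c at 261 and 245 CPM (-0.09, -0.21 to 0.02). The Matn4-high cells themselves differed between the days. Their median Cnmd level was lower at day 14, as given above, and their median Aspn level was higher, at 1326 CPM against 664 CPM at day 10. The part of this difference in these ratios was not tested.

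In Cnmd-high cells, whose median Cnmd level was 5601 CPM at day 10 and 5514 CPM at day 14, no gene of the 10 was called different, beside 1.84% of all genes. All 10 nevertheless had a lower level at day 14, with log2 ratios from -0.88 (-1.20 to -0.57) for Peg10 and -0.78 (-0.86 to -0.70) for Mest to -0.25 (-0.88 to 0.34) for Dlk1, the latter with an interval that included 0. The median log2 ratio over 9 of the genes was -0.52, beside -0.05 over all genes. In Col10a1-high cells 1 gene, Igf2, was called (-2.09, -2.56 to -1.62), beside 1.42% of genes, with a ratio of -1.19 when cells with over 5000 genes were kept. Its levels there, 27.4 CPM at day 10 and 6.46 CPM at day 14, lay within and below the interval of the day 14 background given above. Mest and Meg3 had ratios of -0.03 and 0.02 in these cells.

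In Aspn-high cells 1 gene was called, again Igf2 (-1.10, -1.36 to -0.84, from 73.7 to 34.3 CPM), beside 3.62% of genes. Its day 14 interval there, 30.4 to 38.5 CPM, overlapped that of the day 14 background given above. The Igf2 call in Aspn-high cells ended with the 90th percentile (-0.93), the 98th percentile (-0.73) and the mean over cells (-0.94). Meg3 was higher at day 14 in these cells, at 799 CPM (779.8 to 818) against 485 CPM (460.3 to 509.9), a log2 ratio of 0.72 (0.64 to 0.80) that is the reverse of its ratio of -0.41 (-0.47 to -0.36) in Cnmd-high cells. No gene was called in Ifitm5-high cells, beside 2.04% of genes, and H19 came close, at 111 and 55.5 CPM. In Chodl-high cells 4 genes were called, 3 higher and 1 lower at day 14, but with 42 and 13 cells 35.5% of all genes were called too. Of these 4, only Cdkn1c had an interval that excluded 0 (1.03, 0.48 to 1.58), and its ratio was 0.05 in cells high for a single marker.

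Among all cells with 5000 CPM or more of Col2a1, 126 at day 7, 4080 at day 10 and 3998 at day 14, Igf2 had overlapping intervals at day 7 and day 10. Igf2 was at 89.9 CPM (78.6 to 102), 86.4 CPM (84.4 to 88.6) and 34.8 CPM (33.4 to 36.1) over the 3 days. The day 7 level rested in part on 4 cycling cells (defined below) under 1000 CPM of Col10a1, which held 58 Igf2 UMIs (901 CPM). The 109 other day 7 cells under 1000 CPM of Col10a1 were at 76.0 CPM (64.9 to 88.6). Such cells of day 10 were at 101 CPM (98.5 to 104). Zim1 was at 211, 185 and 85.4 CPM, and H19 at 1440, 929 and 358 CPM, lower at each day. Peg3 and Meg3 were highest at day 10, Peg3 at 1766, 2096 and 1079 CPM and Meg3 at 374, 572 and 309 CPM. Cdkn1c differed least between day 10 and 14 (-0.18, -0.20 to -0.15), whereas H19 had -1.37 (-1.39 to -1.35) and Igf2 -1.31 (-1.38 to -1.25). Cells with high Col10a1 were a larger share of these cells at day 14, as the numbers of cells by Col10a1 range show, and their part in these ratios was not tested. Within the range under 200 CPM of Col10a1 Igf2 was at 109 against 54.5 CPM and H19 at 1113 against 563 CPM at day 10 and 14.

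The genes also differed in how their transcripts spread over cells. Cells were thinned to 2000 UMIs each so that depth did not enter, which left out 8 of 522 and 3 of 209 Cnmd-high cells. At least 1 UMI was then found in 96.9% (94.99 to 98.2) of Cnmd-high cells for Peg3 at day 10 (exact 95% binomial interval), 74.7% (70.7 to 78.4) for H19, 66.7% (62.5 to 70.8) for Plagl1, 42.0% (37.7 to 46.4) for Zim1, 19.1% (15.8 to 22.7) for Igf2 and 8.75% (6.46 to 11.5) for Peg10. Without thinning the shares were 99.2, 94.6, 95.6, 93.5, 40.4 and 38.1%. In the day 7 cells with 2 or more Ptprc UMIs the thinned shares were 1.82% for Peg3, 2.86% for H19 and 0.252% for Igf2, at a median depth of 5089 UMIs against 16822 in the Cnmd-high cells. In the 116 day 14 cells of this kind deep enough for thinning they were 16.4% for Peg3, 2.59% for H19 and 3.45% (0.947 to 8.59) for Igf2, at a median of 8505 UMIs. The thinned share of Igf2 was 2.71% (1.10 to 5.51) in Col10a1-high and 2.39% (0.781 to 5.49) in Ifitm5-high cells of day 10, neither above the day 14 background. For Meg3 that background was 12.1% (6.76 to 19.4), against 8.32% in Col10a1-high and 6.24% in Ifitm5-high cells of day 14. For Mest it was 6.90% (3.02 to 13.1), against 3.88% and 7.37%. Neither gene had a share above that interval in those classes on either day. The day 7 background was lower, at 0.437% for Meg3 and 0.773% for Mest.

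Igf2 was concentrated in few cells. At full depth 59.6% of Cnmd-high cells of day 10 had no Igf2 UMI and 9.77% had 10 or more, and the 53 cells with most Igf2 held 64.1% of its UMIs. For Zim1 only 6.51% of the cells had no UMI and the 53 cells with most held 25.0%, and for Peg3 these values were 0.766% and 22.6%. Cdkn1c was uneven as well, with 49.4% in the 53 cells with most and up to 113 UMIs in a cell. At day 14 the 21 of 209 Cnmd-high cells with most of each gene held 70.9% of Igf2, 56.8% of Cdkn1c and 25.4% of Zim1 UMIs. Meg3 was absent from a part of the cells and abundant in most, with no UMI in 22.4% and 10 or more in 55.6% of Cnmd-high cells at day 10, and 1 to 9 in the rest.

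**Figure D4:**
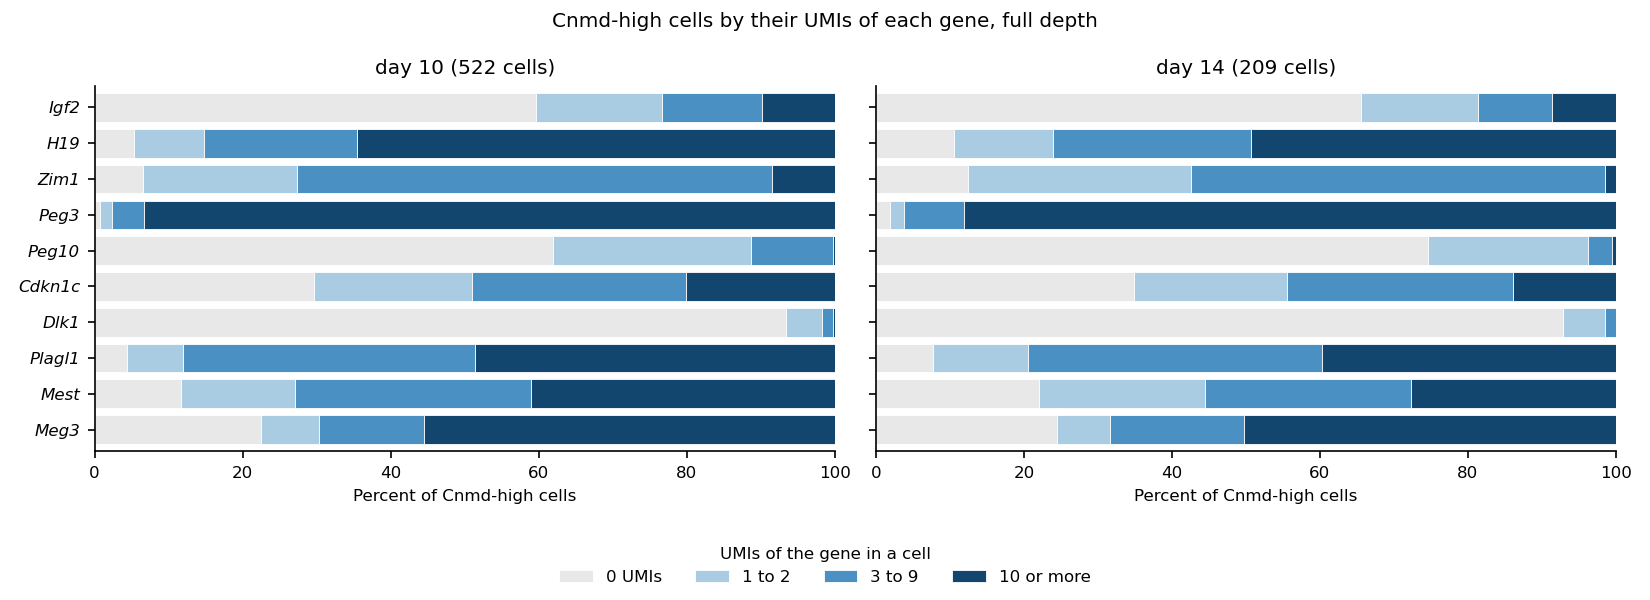
Percent of Cnmd-high cells with 0, 1 to 2, 3 to 9 and 10 or more UMIs of each gene at full depth, at day 10 (522 cells) and day 14 (209 cells). Peg3 is found in nearly all cells, Igf2 is at 0 in 59.6% of the day 10 cells, and Meg3 is at 0 in 22.4% and at 10 or more in 55.6% of them.

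The cells without Meg3 were examined further, a split chosen after the values had been seen. Of the Cnmd-high cells of day 10, 117 had no Meg3 UMI and 364 had 3 or more, at median depths of 16401 and 16876 UMIs. Rian, a maternally expressed noncoding RNA from the same domain, was at 209 CPM in cells with Meg3 and 1.61 CPM in cells without, from 1305 and 3 UMIs, a log2 ratio of 7.02 (5.47 to 9.30). Mirg, the next noncoding RNA of the domain, had 129 UMIs in cells with Meg3 and 0 in cells without, which allows up to 1.61 CPM against 20.6 CPM. In the same cells the log2 ratios were 0.07 (0.02 to 0.11) for Peg3, 0.12 (-0.03 to 0.26) for Zim1 and 0.09 (-0.00 to 0.18) for Plagl1, 0.21 (0.08 to 0.34) for Cdkn1c and 0.42 (0.32 to 0.53) for Mest. Cnmd was at 5914 and 5923 CPM, and Col2a1 at 49949 and 43280 CPM. Between the 2 sets, nearly all Rian and Mirg UMIs were thus in the cells with Meg3, while Peg3, Zim1 and Plagl1 were at like levels in both.

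Rian was also lower in the cells without Meg3 in Cnmd-high cells of day 14 and in Matn4-high and Aspn-high cells of both days. In Cnmd-high cells of day 14 (143 with Meg3, 51 without) Rian was at 139 against 1.08 CPM, and in Matn4-high cells at 128 against 1.48 CPM at day 10 and 118 against 0.409 CPM at day 14. In Aspn-high cells Rian was at 127 against 8.37 CPM and 177 against 5.17 CPM. Cells without Meg3 were 39.6% and 41.4% of Matn4-high cells at day 10 and 14, 26.1% and 25.7% of Aspn-high cells and 22.4% and 24.4% of Cnmd-high cells. Dlk1, which is expressed from the other allele, was also rarer in the cells without Meg3 in Cnmd-high cells of day 10, with 2 against 83 UMIs (log2 ratio 3.63, 1.73 to 6.70), and in Matn4-high cells, with 1 against 39 at day 10 (4.89, 2.33 to 10.23) and 1 against 22 at day 14 (4.34, 1.71 to 9.71). In Cnmd-high cells of day 14 it had 9 against 24 UMIs, and the interval of the ratio included 0 (-0.23, -1.39 to 1.06). At day 10 no Dlk1 UMI was found in 93.5% of Cnmd-high and 95.2% of Matn4-high cells. A single Cnmd-high cell of day 10 held 25 of the 86 Dlk1 UMIs, so the intervals of these Dlk1 ratios are too narrow.

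Igf2 was higher in the cells with Meg3 in Cnmd-high and Matn4-high cells. Its level was 195 CPM in cells with and 70.4 CPM in cells without Meg3 in Cnmd-high cells of day 10 (log2 ratio 1.47, 1.21 to 1.74), and the ratios were 1.07 (0.65 to 1.52) at day 14 and 1.53 (1.26 to 1.81) and 1.39 (1.15 to 1.63) in Matn4-high cells. In Aspn-high cells the ratio was 3.06 (2.19 to 4.09) at day 10 and -0.47 (-0.84 to -0.09) at day 14, in opposite directions. Cells were also split by Igf2, with 3 or more UMIs against 0. The Meg3 log2 ratio in Cnmd-high cells was then 0.94 (0.88 to 1.01) at day 10. At day 14 it was -0.01 (-0.14 to 0.12), so the day 14 link was not seen this way. In Matn4-high cells it was 0.80 (0.67 to 0.93) and 1.39 (1.26 to 1.51), and in Aspn-high cells 1.11 (0.91 to 1.31) and 0.19 (0.03 to 0.34). H19 was higher in the cells with Meg3 by 0.23 to 0.38 on the log2 scale in the Cnmd-high and Matn4-high cells, and Cdkn1c was lower in the cells with Meg3 among Cnmd-high cells of day 14 (log2 ratio -0.67, -0.85 to -0.49). Counting intervals treat UMIs of a cell as independent, so they are too narrow for genes as unevenly spread as Igf2. Whether cells with and without Meg3 came from different animals was not tested.

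**Figure D5:**
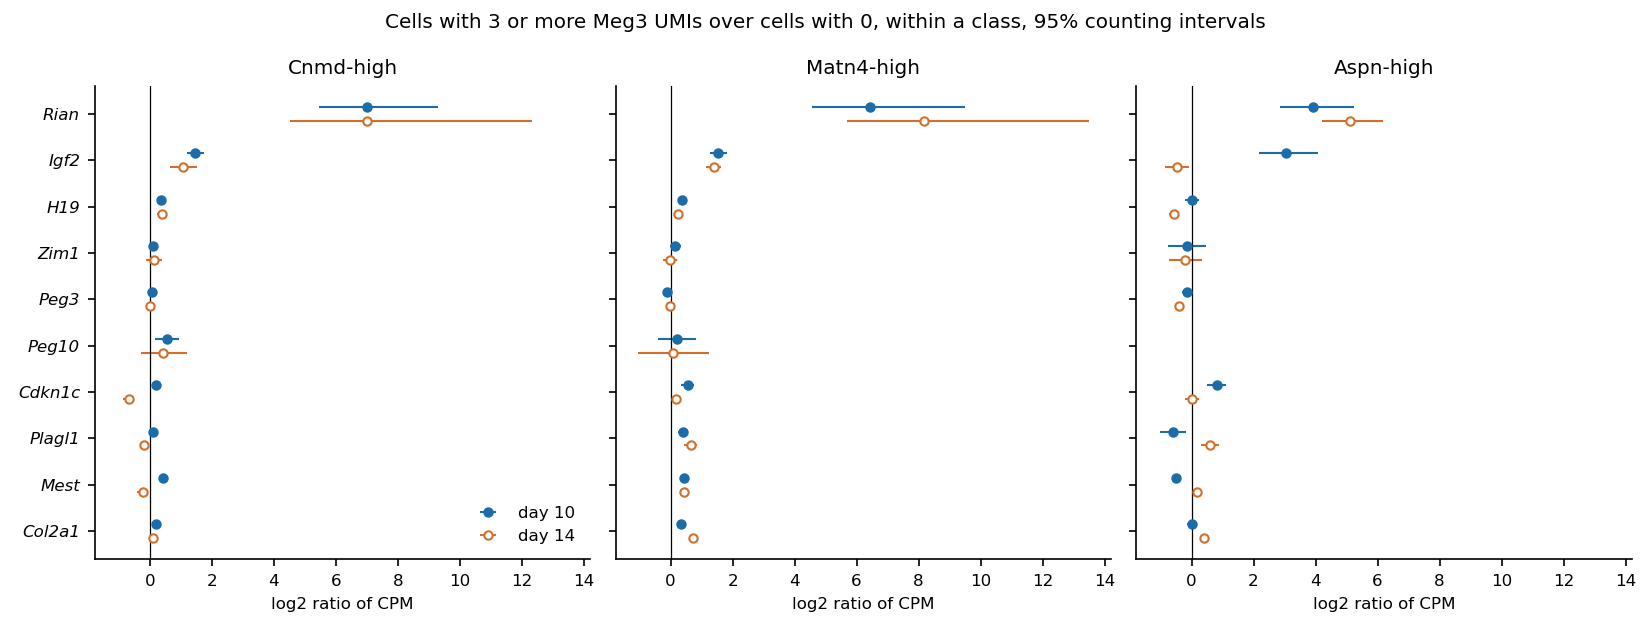
Log2 ratio of the level (CPM) in cells with 3 or more Meg3 UMIs over that in cells with none, within Cnmd-high, Matn4-high and Aspn-high cells at day 10 (filled) and day 14 (open), with 95% binomial counting intervals. Rian stands far to the right in all 3 classes, Igf2 is raised in the Cnmd-high and Matn4-high cells, and genes with under 10 UMIs in the cells without Meg3 are left out except Rian. Dlk1 is not drawn, and Col2a1 is added for reference.

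Cycling cells were compared with the rest among cells with 5000 CPM or more of Col2a1 and under 1000 CPM of Col10a1. Cycling meant a UMI of at least 3 of 8 mitotic genes and 500 CPM or more over the 8, which held for 136 cells at day 10 and 87 at day 14, against 3160 and 2205 other cells. The cell cycle inhibitor gene Cdkn1c was lower in cycling cells, at 158 CPM (143 to 173) against 303 CPM (298 to 307) at day 10 and 86.1 CPM (73.3 to 100.5) against 269.9 CPM (265 to 275) at day 14. Plagl1 was lower too, with log2 ratios of -0.98 (-1.08 to -0.88) and -0.85 (-0.99 to -0.70), as was Meg3, with -0.76 (-0.85 to -0.67) and -0.99 (-1.13 to -0.85). Mest was higher in cycling cells, with 0.34 (0.27 to 0.41) and 0.79 (0.69 to 0.89), and H19 differed little, with 0.11 (0.06 to 0.16) and 0.18 (0.09 to 0.27). Igf2 had -0.34 (-0.55 to -0.15) and -0.54 (-0.91 to -0.18), Zim1 -0.45 (-0.59 to -0.31) and -0.49 (-0.74 to -0.26), and Peg3 -0.36 (-0.40 to -0.32) and -0.13 (-0.19 to -0.07). The median over 9 of the 10 genes was -0.36 and -0.49, beside 0.13 and 0.10 over all genes.

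Genes of the same systems that are not among the 10 were read through lists. Of 47 other imprinted genes, 18 reached 10 CPM in Aspn-high or Cnmd-high cells at day 10, where 3 were at least 2-fold higher in Cnmd-high cells and none lower, and 17 did at day 14, where 2 were higher and 1 lower. The shares of all genes were 5.27% higher and 19% lower at day 10 and 5.81% and 21.2% at day 14. None of them met the rule for giving values, a difference on both days and 50 CPM in some class. From Cnmd-high to Col10a1-high cells 7 of 19 were lower and 2 higher at day 10, and 4 of 19 were lower and 2 higher at day 14, beside 11% and 11.1% of all genes lower and 14.4% and 12.3% higher. Igf2r, the maternally expressed receptor that removes the Igf2 protein, Rian, Mirg and Usp29, a neighbour of Peg3, were lower on both days, and Slc38a4, an amino acid transporter gene, was higher on both.

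Of the 20 genes of the insulin-like growth factor list, 12 reached 10 CPM in Aspn-high or Cnmd-high cells at day 10 and 13 at day 14. On each day 6 of them were at least 2-fold lower in Cnmd-high cells and 1 was higher, beside 19% and 21.2% of all genes lower and 5.27% and 5.81% higher at day 10 and 14. Igf1, the ligand gene that is not imprinted, was at 1478 CPM in Aspn-high, 812 in Matn4-high, 169.5 in Cnmd-high, 13.7 in Ifitm5-high and 3.72 in Col10a1-high cells at day 10, and at 1910 CPM in Aspn-high and 210.3 CPM in Cnmd-high cells at day 14. Igf1 was therefore highest in the Aspn-high cells, where Igf2 was below its Matn4-high and Cnmd-high levels. The binding protein genes Igfbp4 and Igfbp5 had the same direction, Igfbp4 at 688 against 158 CPM and Igfbp5 at 727 against 19.95 CPM in Aspn-high and Cnmd-high cells of day 10. Igfbp6 was at 270.2 and 22.0 CPM and Igfbp3 at 47.3 and 14.0 CPM in the same classes. Igf1, like Igf2, was lowest in the Col10a1-high and Ifitm5-high cells on both days.

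Of the 6 other inhibitors of cyclin-dependent kinases, 1 was higher and 2 were lower in Cnmd-high than in Aspn-high cells on each day, beside the same shares of all genes (5.27% and 5.81% higher, 19% and 21.2% lower). Cdkn1a, the gene of a related inhibitor, was at 913 CPM in Col10a1-high and 199 CPM in Cnmd-high cells of day 10 and at 804 and 243 CPM at day 14. Cdkn1a and Cdkn1c thus shared the direction from Cnmd-high to Col10a1-high cells, 2-fold or more only for Cdkn1a. Cdkn2a was at 44.3 CPM in Aspn-high and 9.24 CPM in Cnmd-high cells of day 10, and Cdkn2b at 75.6 and 9.69 CPM. Of 8 genes that maintain imprints, 5 reached 10 CPM and none was called in any of the 6 comparisons between classes.

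Over the 12 class by day levels, on the log2 scale after adding 10 CPM and among 4173 genes with at least 50 CPM in some class, the patterns most like that of Igf2 were those of Lrp6 (r = 0.95), Trabd2b (r = 0.95) and Tenm3 (r = 0.93). For Zim1 they were Lpar4 (r = 0.96), Peg3 (r = 0.96) and Rtl3 (r = 0.95), so its neighbour Peg3 was among the 3. For Peg10 they included Gfpt2 (r = 0.92) and Eif4e (r = 0.91), and for Cdkn1c they were Hnrnpu (r = 0.86), Phf3 (r = 0.84) and Ivns1abp (r = 0.83). The correlation of Cdkn1c with each of the other 9 genes was between -0.21 (Mest) and 0.54 (Peg3).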

How the data were processed

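Droplet single-cell libraries of sorted fracture callus cells, 1 each from day 7, 10 and 14, were deposited by the authors as raw UMI counts per gene and barcode (filtered matrices). The submitters' processing notes name Cell Ranger 3.0 and the genome mm10, and the matrix header gives software version 3.1.0. UMIs of a class of cells were summed and expressed as CPM, with exact Poisson intervals, and ratios with exact binomial intervals (95%, Python 3.11.15, numpy 2.4.6, scipy 1.17.1, pandas 2.3.3). Cells had 500 to 5000 genes, at most 10% mitochondrial and 5% haemoglobin UMIs and no Ptprc UMI. A cell high for several markers was placed by its highest level relative to the threshold, with Chodl first. No doublet caller was run, and cells high for 2 or more markers numbered 1, 98 and 78. No p-value was computed because each day has 1 library. The interval code was tested on simulated Poisson counts, which lack the uneven spread over cells of genes such as Igf2. A first run fell short of the planned share of changed genes recovered. The criterion was then changed to allow misses only near the level minimum. The 10 genes and the lists were chosen with earlier results of these data known. Values were given for list genes that differed at least 2-fold between Cnmd-high and Aspn-high cells on both days and reached 50 CPM in some class, and for the 3 genes most correlated with each of Igf2, Zim1, Peg10 and Cdkn1c, of which 1 for Peg10 is not reported here. Igf2r, Rian, Mirg, Usp29 and Slc38a4, the Col2a1 and Col10a1 ranges, the cycling cells and the Meg3 and Igf2 splits were chosen after values were seen. Alternatives varied the percentile, the treatment of cells high for several markers, the gene limit, the Ptprc rule, the summing, the total, the cells with most UMIs and the level minimum. Of 32285 gene identifiers 32158 were matched to the GENCODE M21 annotation.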

Additional observations from a re-analysis of the deposited data

Results flagged for a closer look

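The change of Meg3 between the libraries of day 10 and day 14 had opposite directions in 2 classes of cells. The log2 ratio of day 14 over day 10 was -0.41 in Cnmd-high cells and 0.72 in Aspn-high cells. The difference was not tested, since each day has 1 library.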

How the results depend on the processing

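Over 18 counts of genes and 10 alternatives, and over 50 called log2 ratios, no direction was reversed, and 396 of 396 recomputed called ratios kept their direction, while 33 moved by more than 1.5-fold. In the comparison of Ifitm5-high with Aspn-high cells, the count of genes higher was 1 at day 10 with the 90th percentile, with the 50 genes of most UMIs left out of the total or with no level minimum, and 1 at day 14 with the 90th percentile or no minimum, and the count of genes lower at day 14 was 7 with the 98th percentile. Counts of genes that differed between days moved more. In Cnmd-high cells the count was 1 with the 90th percentile or without the 1% of cells with most UMIs, and 4 with the Col2a1 range in place of the class, an alternative chosen after seeing the data. In Aspn-high cells it was 0 with the 90th or 98th percentile or the mean over cells, 2 without the 50 genes, and 3 without the 1% of cells or with no minimum. In Ifitm5-high cells it was 5 with the 98th percentile and 1 with no gene limit, with Ptprc cells kept, with the mean over cells or without the 50 genes. In Col10a1-high cells it was 2 without the 1% of cells, 3 with no minimum and 0 with a minimum of 50 CPM. In Chodl-high cells it was 2 with single-marker cells or the mean over cells and 1 with no gene limit or a minimum of 50 CPM. The cause was not tested. No paired analysis was possible because each day has 1 library, and for the same reason no replicate could be left out. Depth limits Dlk1 and Peg10, and all values of the 13 Chodl-high cells of day 14.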
